A study of Homo sapiens with 4 samples.

Results

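MYC and PVT1 lie side by side on chromosome 8, and what is described here is the SMC1 and CTCF peaks and the HiChIP loops of their locus in HG00731, a human B lymphoblastoid cell line (LCL) that was made by Epstein-Barr virus (EBV) transformation. HiChIP joins DNA ends that are close in the nucleus and then enriches the joined fragments with an antibody. SMC1, a subunit of cohesin, was profiled after dual cross-linking with formaldehyde and EGS (FA-EGS HiChIP), and CTCF after formaldehyde alone, each in 2 biological replicates. The replicates were pooled before calling, so each target has 1 peak list and 1 loop list, no value below has a spread between replicates, and no difference was tested.

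The peaks and loops were taken by position, without use of their values. MYC (ENSG00000136997.22) was taken at chr8:127735434-127742951 and PVT1 (ENSG00000249859.14) at chr8:127794526-128187101 of hg38, both on the plus strand of the GENCODE release 44 annotation, which lists 62062 genes on chromosomes 1 to 22 and X. MYC is 7.52 kb long, and PVT1, a lncRNA gene of 393 kb, starts 59.1 kb past the MYC start. Peaks with a summit from 1235 kb before to 1765 kb past the MYC start were taken, and loops with at least 1 anchor in that stretch. This window of 3 Mb held 161 of 96855 SMC1 peaks, 53 of 62869 CTCF peaks, 19 of 28012 loops in the list labelled SMC1 and 100 of 80487 loops in the list labelled CTCF. These totals, called the whole lists below, cover chromosomes 1 to 22 and X, and peaks on other sequences were left out.

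MYC encodes a transcription factor that drives growth and proliferation, and its promoter is known to take input from enhancers scattered over the large gene-poor regions on both sides. In B cells transformed by EBV, enhancers far upstream of MYC that are bound by viral nuclear proteins are known to contact the gene. PVT1 is a long non-coding RNA gene with enhancers in its introns, and its promoter has been described as a competitor of the MYC promoter for enhancers in other cell types. Cohesin extrudes DNA loops and is halted by CTCF, most often where the motifs at both loop ends point toward each other.

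The loop lists are named by their labels throughout, but these labels appear to be exchanged: the study's own loop totals give the larger list to SMC1 and the smaller to CTCF, and the peaks in the anchors point the same way. The loop caller, MAPS, works on 5 kb bins and needs a peak of the same sample in a bin of each loop. Of all loops labelled CTCF, 95.3% had a CTCF peak in an anchor and 100% an SMC1 peak (80487 of 80487). For the loops labelled SMC1, an SMC1 peak was in an anchor of 28001 of 28012 loops (100% after rounding) and a CTCF peak in all 28012 (100%). By both signs, the list labelled CTCF holds the loops of the SMC1 experiment and the list labelled SMC1 those of the CTCF experiment, and each loop value below is to be read with this. All loops of both lists had at least 12 read pairs and an observed over expected ratio above 2, so a loop that is not listed is one that did not pass these limits at this depth.

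Cohesin peaks were dense upstream of MYC and in PVT1 and sparse past PVT1. Over the window as a whole they were more frequent than in the whole list, while CTCF peaks were not. SMC1 peaks numbered 53.7 per Mb in the window, compared to 32.0 per Mb over all chromosomes, and CTCF peaks 17.7 compared to 20.7 per Mb. Among all windows of this length that held a peak, the SMC1 count stood at percentile 81.5 and the CTCF count at percentile 44.3. The loops stood near the middle, at percentile 47.7 for the list labelled SMC1 and 62.4 for the list labelled CTCF. The peaks were of moderate height, with a median fold enrichment over the local background of 2.85 for SMC1 (3.32 in the whole list) and 4.77 for CTCF (5.01 in the whole list).

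Most SMC1 peaks of the locus had no CTCF peak. Of the 161 SMC1 peaks, 40 overlapped a CTCF peak, 24.8% (95% Wilson interval 18.8 to 32.1%, counting error only), beside 47.1% of all SMC1 peaks. In the other direction, 41 of 53 CTCF peaks overlapped an SMC1 peak, 77.4% (64.5 to 86.5%), beside 75.9% of all CTCF peaks. The 40 shared SMC1 peaks were taller by the median, with a −log10 q of 36.1, and the 121 others had a median of 7.42. Their ranges overlapped, from 4.47 to 141 for shared peaks and from 2.07 to 114 for the others. The whole list showed the same order, with medians of 34.1 and 7.40. The CTCF motif, learned from strong summits outside chromosome 8, was found within 100 bp of the summit in 14 of the 53 CTCF peaks, 26.4% (16.4 to 39.6%), and in 28.7% of all CTCF peaks.

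**Figure D1:**
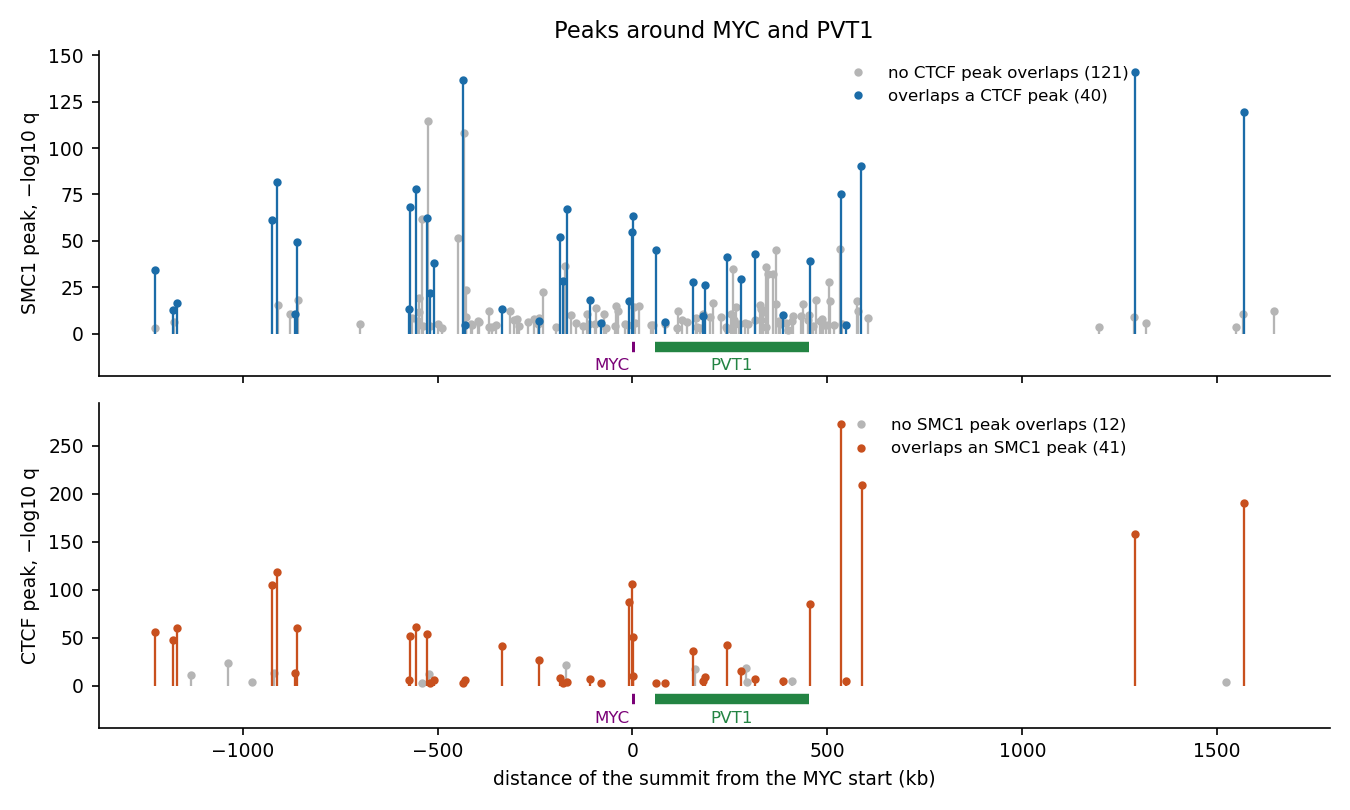
Each vertical line is a peak, placed by the distance of its summit from the MYC start in kb, with its −log10 q as the height and colour where a peak of the other target overlaps it. The PVT1 gene holds 50 SMC1 peaks and 13 CTCF peaks, and the 4 tallest CTCF peaks stand past the end of PVT1.

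The PVT1 gene body was the densest stretch for SMC1. It held 50 SMC1 peaks, 127.4 per Mb, of which 9 overlapped a CTCF peak. Upstream of the MYC start the density was 62.3 per Mb (77 peaks), between both gene starts 101.5 per Mb (6 peaks), and from the PVT1 end to the window's end 21.3 per Mb (28 peaks). Of 2137 genes of at least 200 kb, 40 had more SMC1 peaks per Mb than PVT1, and their median was 18.9 per Mb. CTCF peaks in PVT1 numbered 13, 33.1 per Mb, and 292 of the long genes had a higher density. This is percentile 86.3 of the long genes, whose median was 14.4 per Mb, and the whole CTCF list had 20.7 per Mb.

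Few of the SMC1 peaks in PVT1 were loop anchors. Of the 50 peaks, 4 lay in an anchor of the list labelled CTCF, 8% (3.15 to 18.8%), where 51.2% of all SMC1 peaks did. Among the 363 long genes with at least 20 SMC1 peaks the median share was 46.2%, and 9 genes had a lower share than PVT1. For the anchors labelled SMC1 it was 1 of 50, 2% (0.354 to 10.5%), beside 22.0% of all SMC1 peaks. There the median share of the 363 long genes was 10.3%, and 83 had a lower share than PVT1. Over the whole window 50 of 161 SMC1 peaks lay in an anchor of the list labelled CTCF and 25 in an anchor of the list labelled SMC1. For CTCF peaks the counts were 27 of 53 (55.3% of all CTCF peaks) and 15 of 53 (28.0% of all CTCF peaks). Upstream of MYC, 32 of 77 SMC1 peaks lay in an anchor labelled CTCF and 15 in an anchor labelled SMC1.

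The MYC start carried peaks of both targets. An SMC1 peak of 1325 bp had its summit 1.05 kb upstream of the start, with a fold enrichment of 2.88 and a −log10 q of 54.5, and a CTCF peak at the same place had a fold enrichment of 6.58 and a −log10 q of 106. Both lie in an intron of CASC11, an antisense lncRNA gene that starts 3.55 kb past the MYC start. In the first exon of MYC a further SMC1 peak (−log10 q 63.6) had its summit 0.874 kb past the start, and a CTCF peak (−log10 q 50.5) 0.794 kb past it. Weaker summits followed at 3.37 kb for SMC1 (−log10 q 14.5) and at 1.83 kb for CTCF (−log10 q 10.8). None of these CTCF peaks held the motif at 10 bits or more. The CTCF peak with a motif nearest to MYC stood 9.63 kb upstream, with a fold enrichment of 9.52, a −log10 q of 87.2 and a motif of 15.9 bits on the plus strand, which points toward MYC.

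At the PVT1 start cohesin was strong and CTCF weak. The SMC1 peak there was 2087 bp wide, with its summit 59.7 kb past the MYC start, a fold enrichment of 3.83 and a −log10 q of 45.3. The CTCF peak had a fold enrichment of 2.67 and a −log10 q of 3.09, near the lower end of the whole list. A peak within 5 kb of the start was common among genes. It was found at 70.5% of protein-coding starts for SMC1 and at 56.0% for CTCF, and at 46.8% and 35.9% of lncRNA starts, so its presence at MYC and PVT1 does not set them apart.

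Away from the gene starts the tallest peaks of both targets were distal. For SMC1 they stood 1289 kb past the MYC start (−log10 q 141, fold enrichment 9.27), 435 kb upstream (137), 1568 kb past it (120), 525 kb upstream (114) and 433 kb upstream (108). The peak 525 kb upstream overlapped no CTCF peak and lay in the lncRNA gene CCAT1 by RefSeq. For CTCF the tallest stood 534 kb past the start (−log10 q 273, fold enrichment 17.5), 588 kb past it (209), 1568 kb (191), 1289 kb (158) and 911 kb upstream (118). The pair at 1289 and 1568 kb, in introns of the lncRNA gene CCDC26, was among the 5 tallest of both targets. Beyond 603 kb past MYC no SMC1 summit was found for 593 kb, and beyond 588 kb no CTCF summit for 701 kb.

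MYC was one of the most connected coding starts. Of the loops labelled CTCF, 25 had an anchor within 5 kb of the MYC start, with 810 read pairs in all. Of 19970 protein-coding starts, 50.2% had any such loop, and 112 had more than MYC (percentile 99.3). The list labelled SMC1 gave 8 loops with 115 read pairs, where 27.9% of coding starts had any and 653 had more than MYC (percentile 96.1). The CASC11 start shared the same anchors and so the same 25 and 8 loops. These are ranks in 1 pooled list each, with no test.

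The PVT1 start had few loops beside MYC, though most lncRNA starts had none. It had 2 in the list labelled CTCF, where 33.9% of 18756 lncRNA starts had at least 1 (percentile 74.1), and 0 in the list labelled SMC1, where 17.4% had at least 1. Both loops ended 523 kb upstream of MYC, at an anchor that also joined MYC. They carried 13 read pairs (95% exact Poisson interval 6.92 to 22.2, counting error only, since read pairs without molecular identifiers are not independent molecules) and 20 read pairs (12.2 to 30.9). The same upstream anchor shared 60 read pairs (45.8 to 77.2) with the bin of the MYC start and 55 (41.4 to 71.6) with the bin before it. PVT1 and MYC therefore had a partner in common, and more read pairs joined it to MYC. The expected numbers also differed, and the observed over expected ratios were 3.02 and 2.28 at PVT1 and 3.62 and 3.77 at MYC.

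**Figure D2:**
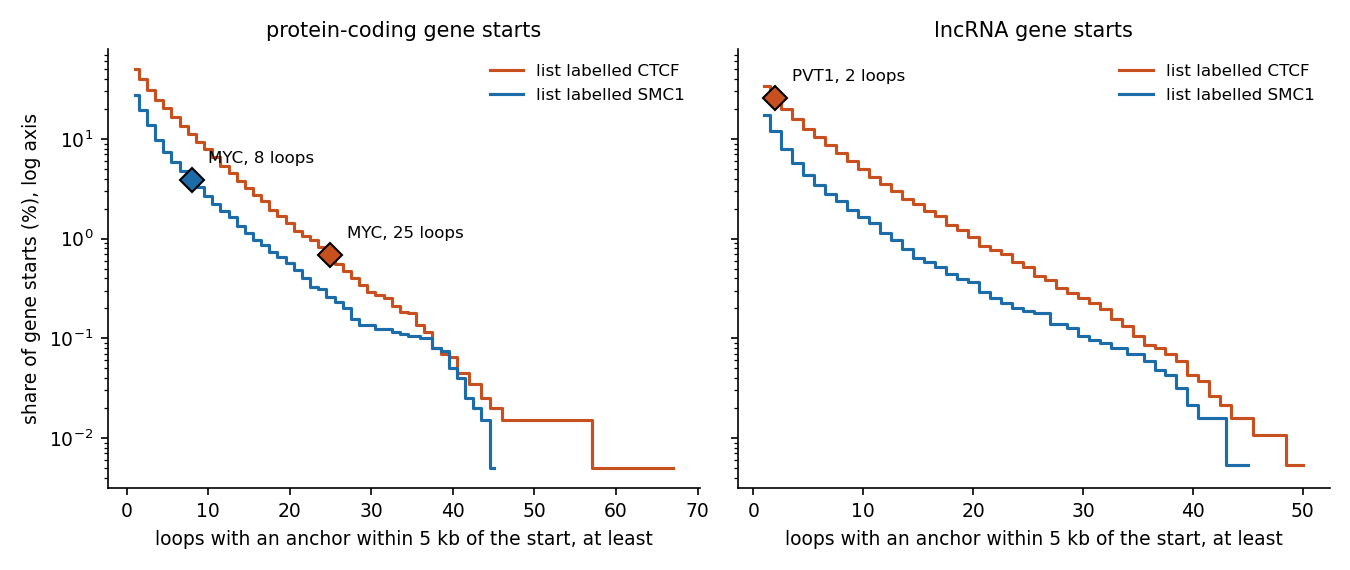
The share of gene starts (percent, log axis) that had at least a given number of loops, for protein-coding starts on the left and lncRNA starts on the right, with 1 line per loop list. Diamonds mark MYC, with 25 and 8 loops far down the curves, and PVT1, with 2 loops near the top.

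The loops at MYC reached to both sides, and almost no other loop went past. Of these 25, 14 had their partner upstream (505 read pairs) and 11 downstream (305 read pairs), with spans from 135 to 590 kb. Of the 8 loops labelled SMC1, 5 went upstream and 3 downstream. Among loops with no anchor at MYC, only the 2 from the upstream anchor to PVT1 passed over its start. The 2 loops from the bin before the start to downstream anchors also span it, but are counted as at MYC. Of the 137 coding starts with at least 25 loops labelled CTCF, a median of 5 passed over each, and 39 had 2 or fewer. None of the loops labelled SMC1 passed over MYC, and 254 of 781 starts with at least 8 loops had none.

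**Figure D3:**
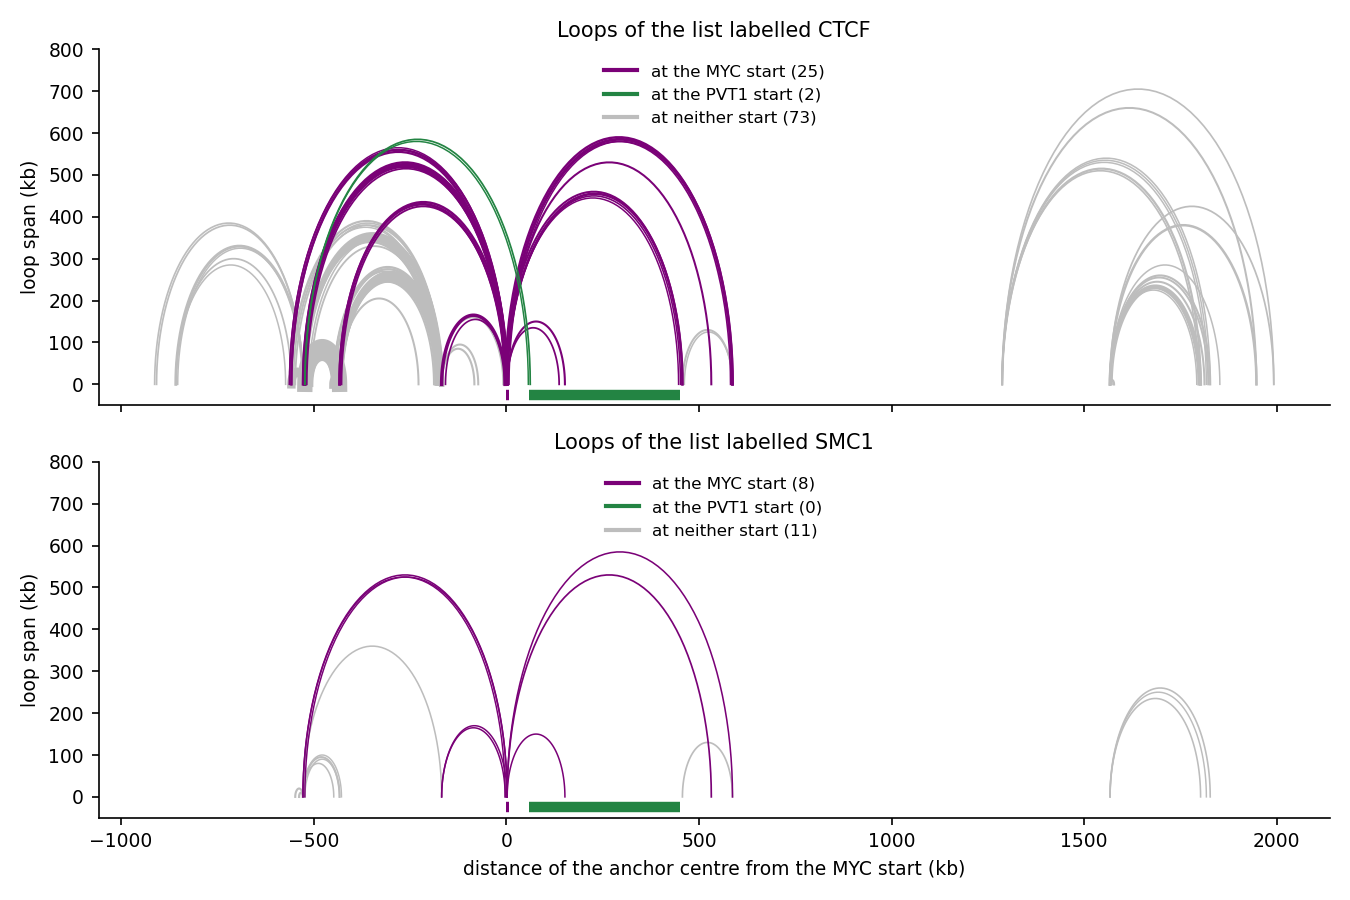
Arcs join the centres of both anchors of each loop, in kb from the MYC start, with the span of the loop as the height and a line width that grows with its read pairs. Upper panel, the list labelled CTCF, with 25 loops at MYC, 2 at PVT1 and 73 at neither. Lower panel, the list labelled SMC1, with 8, 0 and 11. Arcs fan out from MYC to both sides. The arcs past 1 Mb on the right could not reach MYC, since no listed loop spans more than 1000 kb.

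Upstream, MYC joined 3 groups of anchors whose SMC1 peaks ranked higher in the SMC1 list than their CTCF peaks did in the CTCF list. Since −log10 q depends on the depth of each experiment, the percentile within the list is given. For this description, anchor bins whose starts lay within 20 kb of each other were joined to a region. The farthest, chr8:127160001-127230000, 573 to 508 kb upstream, spans introns and exons of the lncRNA genes PCAT1 and CASC19 and, by RefSeq, CCAT1. It shared 301 read pairs with MYC in 9 loops of the list labelled CTCF (95% exact Poisson interval 268 to 337) and 41 in 3 loops of the list labelled SMC1. Its tallest SMC1 peak had a −log10 q of 114 (percentile 94.4 of all SMC1 peaks) and its tallest CTCF peak 61.2 (percentile 73.0 of all CTCF peaks). The second, chr8:127285001-127310000, lies 448 to 428 kb upstream in introns of PCAT1 and CASC8. It shared 116 read pairs with MYC in 3 loops (95.9 to 139), all in the list labelled CTCF. Its SMC1 peak reached 137 (percentile 96.0), while its CTCF peaks had no more than 6.20 (percentile 21.3). The third, chr8:127545001-127580000, lies between genes, 188 to 158 kb upstream. It shared 115 read pairs in 3 loops (94.9 to 138) of the list labelled CTCF, 1 of which ended at the anchor 7.93 kb upstream of MYC, and 26 read pairs in 2 loops of the list labelled SMC1. Its tallest peaks had a −log10 q of 66.9 for SMC1 (percentile 87.3) and 21.4 for CTCF (percentile 52.0). By fold enrichment, which is compared to the background of each experiment, the highest CTCF peaks of the farthest and the nearest region (8.55 and 5.87) stood above their highest SMC1 peaks (6.10 and 5.23). Fold enrichment runs higher in the CTCF list, however. Within each list these SMC1 peaks ranked at percentiles 87.7 and 80.3 by fold, and the CTCF peaks at 76.4 and 57.7.

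Downstream, the 2 farthest partners of MYC held the tallest CTCF peaks of the window, and the nearer ones lower peaks. A pair of anchors in introns of PVT1, 137 and 152 kb past the MYC start, shared 51 read pairs with MYC in 2 loops (38.0 to 67.1), with a CTCF peak of −log10 q 36.8 (percentile 62.8) in the second and none in the first. Anchors at the end of PVT1, 447 to 457 kb past MYC, shared 102 read pairs in 4 loops (83.2 to 124), with a CTCF peak of 85.6 (percentile 79.8) in the last and a minus-strand motif of 13.8 bits, which points back toward MYC. The anchor at 532 kb shared 28 read pairs in 1 loop (18.6 to 40.5) and held the tallest CTCF peak of the window (273, percentile 97.8). The anchors at 582 and 587 kb shared 124 read pairs in 4 loops (103 to 148) and the latter held the next tallest (209, percentile 95.4), and no loop from MYC went farther. The CTCF peaks at 534 and 588 kb had no motif of 10 bits or more, with best scores of 6.86 and 3.59 bits. SMC1 peaks stood in these downstream partners as well. From the nearest to the farthest, the tallest had a −log10 q of 27.7, 39.2, 75.1 and 90.3 (percentiles 68.9, 77.0, 89.1 and 91.6).

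Among single loops at MYC, the most read pairs joined the anchor 168 kb upstream to the bin before MYC, with 70 (54.6 to 88.4) against 25.4 expected. Next came the loops to the anchor 523 kb upstream, with 60 and 55, and the loop to the anchor 587 kb downstream, with 53 (39.7 to 69.3) against 8.998 expected. The anchor 433 kb upstream gave 50 (37.1 to 65.9) to the bin before MYC and 42 to the bin of the start. The highest observed over expected ratios lay at the anchors at 457 kb (6.57, 44 read pairs) and 587 kb (5.89), followed by 5.15 with the anchor 563 kb upstream (17 read pairs), 4.96 at 582 kb (19 read pairs) and 4.86 at 587 kb. The longest loop, of 590 kb, joined 587 kb to the bin before MYC with 38 read pairs. The most among the loops labelled SMC1 were 19 read pairs (11.4 to 29.7), with the anchor at 532 kb.

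The loops at MYC were many and not strong for their span. The median ratio in the list labelled CTCF was 2.84 for the 14 upstream loops and 3.69 for the 11 downstream loops, beside 4.03 for the whole list, and 2 of 14 and 5 of 11 lay above that value. Among the loops labelled SMC1 the medians were 4.33 for the 5 upstream and 5.16 for the 3 downstream loops, beside 4.004 for the whole list, and 3 of 5 and 3 of 3 lay above it. The ratio rises with the span over the whole list, from a median of 2.66 below 50 kb to 7.15 between 550 and 600 kb. Compared to loops of the same span class of 50 kb, 25 of 25 lay below the median and 19 below the 10th percentile, 13 of them upstream. Of the loops labelled SMC1, 8 of 8 lay below the median of their class and 1 below the 10th percentile. By −log10 q the main peaks in the anchors at MYC ranked high, at percentiles 83.7 and 86.5 for SMC1 and 84.0 and 69.1 for CTCF. By fold enrichment they stood at percentiles 36.1 and 40.8 for SMC1 and 63.3 and 44.4 for CTCF. MAPS raises the expected number with the coverage of the anchors, and the part of this in the low ratios was not tested.

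**Figure D4:**
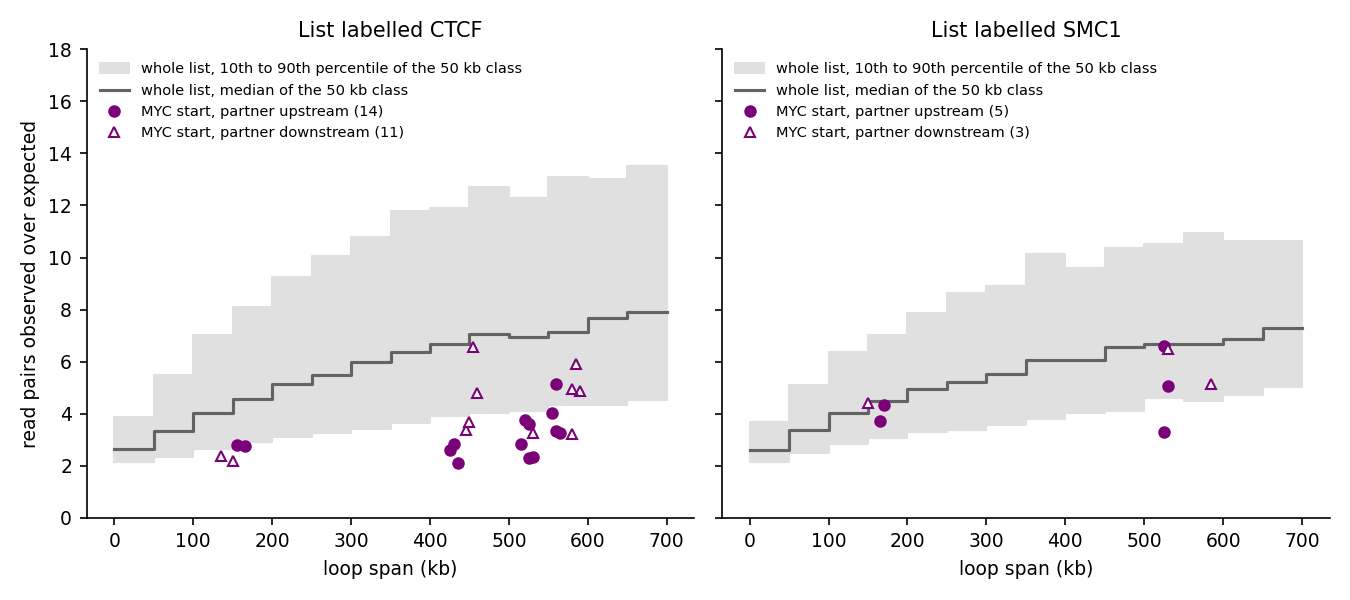
Observed over expected read pairs against the loop span in kb, for the list labelled CTCF on the left and SMC1 on the right. The steps give the median and the shading the 10th to 90th percentile of all loops in each span class of 50 kb. Points are the loops at MYC, filled for upstream and open for downstream partners, and all of them lie below the median steps.

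The upstream anchors shared more read pairs with each other than with MYC, at shorter spans, and relative to the expected number the difference was smaller. The regions 573 to 508 kb and 448 to 428 kb upstream shared 1336 read pairs in 12 loops of the list labelled CTCF (95% exact Poisson interval 1265 to 1410). Each joined the region 188 to 158 kb upstream, with 468 read pairs in 15 loops and 584 in 13 loops. The observed over expected ratios of these 3 sums were 3.41, 3.36 and 4.58, and those with MYC were 3.22, 2.49 and 2.78 for the 3 regions in the same order from the farthest. The most connected single anchor of the window was the one 433 kb upstream, with 14 loops and 1528 read pairs, and the one 168 kb upstream had as many loops. The bin of the MYC start had 13 loops, 5 to the left and 8 to the right. The bin before it had 11, 9 to the left and 2 to the right. In all, 53 of the 100 loops labelled CTCF ran between anchors upstream of MYC, with 3149 of the 4497 read pairs of the window. Of these 53, 49 lay below the median ratio of their span class.

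**Figure D5:**
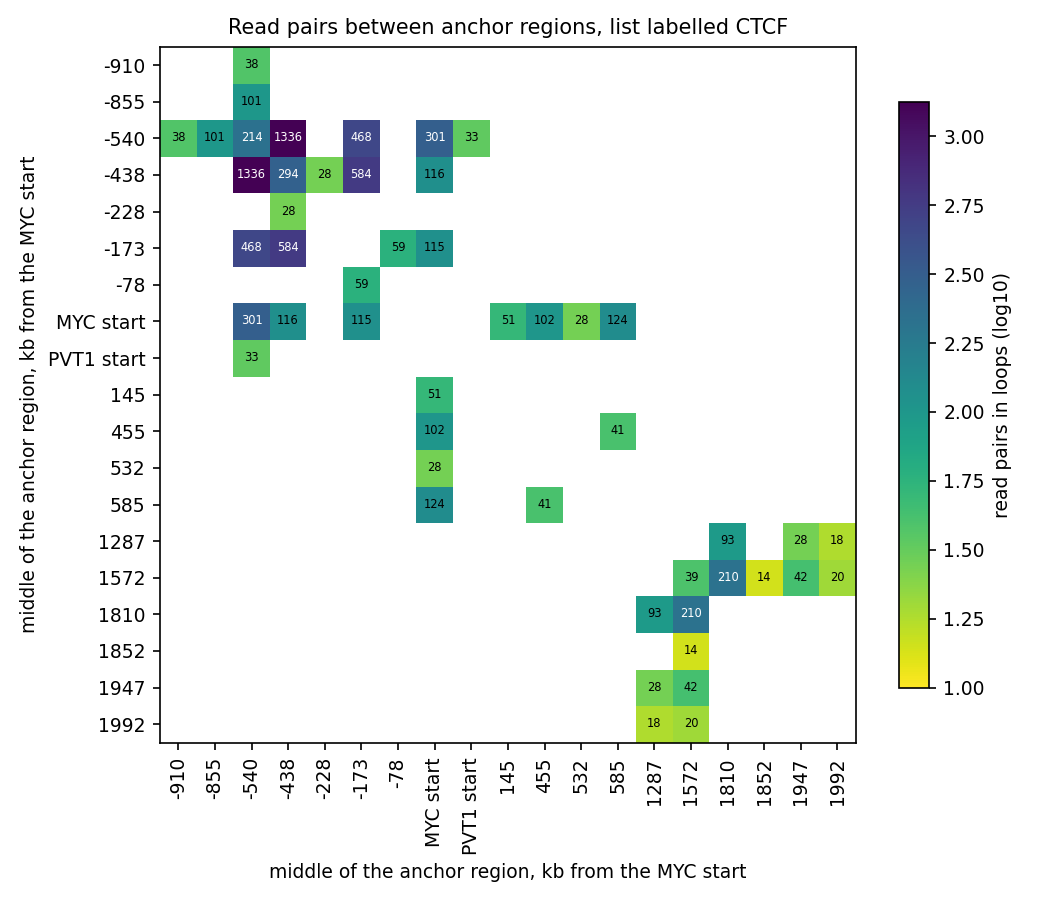
Read pairs summed over the loops of the list labelled CTCF between the anchor regions of the window, with each region named by its middle in kb from the MYC start, the sum printed in each cell and its log10 as the colour. The 3 upstream regions at 540, 438 and 173 kb hold the highest sums (1336, 584 and 468), and the row of MYC spans both sides. The regions past 1 Mb join only each other, and a loop from them to MYC would exceed the longest listed span, 1000 kb.

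The loop with the most read pairs in the window joined 2 of these upstream anchors, chr8:127210001-127215000 and chr8:127300001-127305000, which are 90 kb apart. It had 412 read pairs (373 to 454) against 69.6 expected, a ratio of 5.92, and ranked at percentile 99.95 of the list labelled CTCF by read pairs. The same pair of bins had 13 read pairs (6.92 to 22.2) in the list labelled SMC1, against 2.59 expected, a ratio of 5.02. The quotient of the read pairs, 31.7, was the highest of the 19336 bin pairs that both lists hold, where the median was 1.64 and the range from the 5th to the 95th percentile 0.708 to 4.21. The expected numbers differed by nearly as much, so the ratios stood close together. Both anchors held some of the tallest SMC1 peaks of the locus, with −log10 q of 114 and 137, while their CTCF peaks had 11.9 and 3.20. The next loops by read pairs ran from 448 to 433 kb upstream (232 read pairs) and from 558 to 528 kb upstream (214 read pairs).

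With a tolerance of 15 kb the lists overlapped at this locus about as they did elsewhere. When both anchors were allowed to differ by up to 15 kb, 18 of the 19 loops labelled SMC1 had a match in the list labelled CTCF, 94.7% (75.4 to 99.1%), where 91.7% of all did. In the other direction it was 46 of 100, 46% (36.6 to 55.7%), where 53.4% of all did. At MYC, 8 of 8 loops labelled SMC1 and 14 of 25 labelled CTCF had a match. At equal bins the share was lower than elsewhere for the list labelled CTCF, with 13 of 100 beside 19336 of all 80487. For the list labelled SMC1 it was 13 of 19, beside 19336 of all 28012. The 13 bin pairs of the window that both lists hold had a median quotient of 3.50, above the 1.64 of all such pairs. A CTCF peak was in both anchors of 56 of the 100 loops labelled CTCF (47.7% of all) and of 17 of the 25 at MYC. In 3 of the 100 neither anchor held one, beside 4.65% of all. An SMC1 peak was in both anchors of 87 of the 100 (70.9% of all) and of 24 of the 25 at MYC.

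Past MYC and PVT1 a further group of loops lay around CCDC26. The list labelled CTCF had 18 loops with a left anchor over 1 Mb past the MYC start, with 464 read pairs and a median ratio of 7.05, and the list labelled SMC1 had 3. No loop joined them to the MYC or PVT1 start. None could be listed, since the longest loop of the lists spans 1000 kb and these anchors lie farther away. Of their 3 left anchors, those at 1287 and 1567 kb held the tall CTCF peaks with plus-strand motifs of 15.4 and 17.2 bits, and the bin at 1572 kb, with 1 loop, held no peak. The loop with the most read pairs, 56 (42.3 to 72.7), ran from 1567 to 1802 kb, the one with the highest ratio, 11.2, from 1287 to 1947 kb, and the longest, of 705 kb, from 1287 to 1992 kb with 18 read pairs.

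At the main motif limit, loops with motifs that point toward each other lay in that group. Of the 100 loops labelled CTCF, 5 had a motif of 10 bits or more at both anchors, and 5 of 5 were convergent (100%, 56.6 to 100%), beside 63.2% of all such loops. All 5 lay in the CCDC26 group and started at its anchors at 1287 and 1567 kb. They therefore reuse the same motifs, and the interval, which takes them as independent, is too narrow. None of the 25 loops at MYC had a motif at both anchors at this limit. At 7 bits, 6 of 10 such loops labelled CTCF were convergent in the window, 1 of them at MYC, beside 55.0% of all. With motifs sought in the whole anchor it was 27 of 57 (47.4%), beside 52.0% of all. Of the 18 at MYC, 3 were convergent (16.7%, 5.84 to 39.2%) and 6 had motifs that point away from each other. The loops at MYC also share anchors. Of the loops labelled SMC1, 0 of 19 had motifs at both anchors, so no share is given beside the 60.8% of its whole list.

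The other genes of the MYC network gave a scale for these values. Of the 12 genes MYCN, MYCL, MAX, MXD1, MXI1, MXD3, MXD4, MNT, MGA, MLX, MLXIP and MLXIPL, which encode relatives of MYC, its partner MAX and the repressors and sensors that share this partner or its relative MLX, 12 had an SMC1 peak within 5 kb of the start (70.5% of all coding starts) and 8 a CTCF peak (56.0%). With a loop there were 10 in the list labelled CTCF (50.2%) and 5 in the list labelled SMC1 (27.9%). None had more loops than MYC in the list labelled CTCF, where the median was 3 and the highest were MXD3 with 12 and MYCL with 11. Among those labelled SMC1, MLXIPL had 10 loops, more than the 8 of MYC, and MXD3 had 8. MYCN, best known from neuroblastoma, had 1 loop labelled CTCF, with 15 read pairs, and 0 labelled SMC1. Among genes that mark cell types, an SMC1 peak stood at 6 of 6 starts of B cell genes (MS4A1, CD79A, CD79B, PAX5, EBF1 and CD22) and at 1 of 4 of T cell genes (CD3D, CD3E, CD4 and CD8A). These stand beside 70.5% of all coding starts. A CTCF peak stood at 5 of 6 and 2 of 4, beside 56.0%. The loops did not separate the cell types, with a loop labelled CTCF at 6 of 6 and 4 of 4 (medians of 6 and 5.5 loops) and one labelled SMC1 at 5 of 6 and 3 of 4. The lists measure binding and contacts, not expression.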

How the data were processed

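HG00731 was profiled by HiChIP for SMC1 (FA-EGS) and CTCF (FA) in 2 replicates each. Reads were aligned by the authors with BWA-MEM (hg38). They removed duplicates, pooled the replicates and called peaks with MACS3 3.0.1 without an input sample. The authors deposited, for each peak, a fold enrichment, which is summit signal over local background. Peak significance was deposited as the −log10 of a q-value. For loops the authors deposited raw counts of read pairs per pair of 5 kb bins, the number that the MAPS regression expects, its false discovery rate (a q-value) and a −log10 P of the cluster, which was not used. Depth per replicate is not given in the lists. The study reports more reads in total for SMC1 than for CTCF in HG00731, and the cross-linking differed too. Differences in loop numbers or read pairs between the lists cannot be told apart from these.

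The members, gene lists and rules were chosen with earlier results of these data known. Genes came from GENCODE release 44, with RefSeq names (hg38) where they differ, and 0 of the peaks and loops lay past a chromosome end. Overlap meant at least 1 bp, and a loop was at a gene when an anchor lay within 5 kb of its start. Peaks named are those at the gene starts, in partner anchors and the 5 tallest per target. Loops named are those at PVT1, the 5 with most read pairs and the highest ratios at MYC, the longest, and the 3 with most read pairs in the window. Anchor regions, span classes, long genes and equal bin pairs were added after the values were seen.

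A CTCF motif, 19 bp wide, was built with expectation maximization on 3000 strong CTCF summits outside chromosome 8 and 100 bp on either side. It held 15.3 bits, and a hit of 10 bits was found in 28.7% of CTCF peaks and 5.43% of points 1000 bp away. A first version that forced a site into every sequence was less sharp and was replaced before orientation was counted. Overlap, matching and motif steps were tested on simulated data. Shares carry 95% Wilson intervals and read pairs exact Poisson intervals. With 1 pooled list per target no test was made. Alternatives were stricter limits on peaks and loops, other distances and tolerances, other motif limits and exchanged loop lists. No sequence is printed, and 1 gene of the B cell list is not reported here. Python 3.11.15, NumPy 2.4.6, pandas 2.3.3, SciPy 1.17.1 and Matplotlib 3.10.9 were used.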

Additional observations from a re-analysis of the deposited data

How the results depend on the processing

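Both replicates were pooled, so no replicate could be left out. No paired analysis was possible because each target has 1 pooled list. Of 53 values under alternatives, 28 stayed within 1.5 times of a count or within the interval of a share, and 25 did not. If the 2 loop lists trade targets, which the study's totals and the peaks in the anchors favour, the numbers for SMC1 and CTCF change places: 100 and 19 in the window, 25 and 8 at MYC, 2 and 0 at PVT1.

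A −log10 q of at least 10 left 78 SMC1 and 31 CTCF peaks. Loops at or above their list's median of read pairs numbered 3 labelled SMC1 in the window and 0 at MYC, and 16 labelled CTCF at MYC and 0 at PVT1. A false discovery rate of at most 0.0001 left 11 loops labelled SMC1 in the window and 5 at MYC, and 15 labelled CTCF at MYC and 0 at PVT1. With the start inside the anchor, 13 loops labelled CTCF were at MYC and 1 at PVT1. Any annotated transcript start gave PVT1 1 loop labelled SMC1.

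The matched share of loops labelled SMC1 was 68.4% without tolerance and 66.7% with the median of read pairs in both lists, and that of loops labelled CTCF 13%, 32% with 5 kb and 16.4%. Without tolerance 19336 loops of each whole list had a match, of 28012 labelled SMC1 and 80487 labelled CTCF. For the other settings no whole-list share is given. With motifs sought in the whole anchor, convergent loops made up 47.4% of 57 labelled CTCF, beside 52.0% of all such loops. No share could be given for loops labelled SMC1 in the main setting or at 13 bits, and 7 bits gave 0% of 3 and the whole anchor 30.8% of 13. The whole list labelled SMC1 gave 53.8% at 7 bits and 51.2% over the whole anchor. The share of SMC1 peaks with a CTCF peak stayed within its interval under its 3 alternatives, and 25 to 26 loops labelled CTCF were at MYC with 10 kb or any transcript start. Shares over few loops have wide intervals, and depth sets which loops are listed.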

Other observations

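At the far upstream end of the window, LRATD2, a coding gene, and PCAT1 start next to each other, and 3 CTCF peaks with motifs stood nearby, 1225, 1179 and 1168 kb upstream of MYC. Their −log10 q values were 55.9, 47.9 and 60.3, with motifs of 13.9 and 14.4 bits on the plus strand and 16.2 bits on the minus strand, and all 3 overlapped an SMC1 peak. None lay in a loop anchor of either list, and no loop was at the LRATD2 or PCAT1 start. Nearer to MYC, the CTCF peaks 911 and 859 kb upstream (−log10 q 118 and 59.9) lay in anchor bins of the list labelled CTCF with 1 and 3 loops, and the bin beside each had 1 more. All of these loops ended in the region 573 to 508 kb upstream, and none reached MYC.

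POU5F1B, a retrogene related to POU5F1, and the lncRNA genes CCAT2 and CASC8 have their starts between the upstream anchors that join MYC. Each had an SMC1 peak within 5 kb of its start, and CCAT2 also had a CTCF peak (−log10 q 42.0), but 0 loops of either list were at these 3 starts. The start of CASC19 had 6 loops in the list labelled CTCF and 0 in the list labelled SMC1.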
